A study of Mus musculus with 10 samples.

Results

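The genes described here are the LIM-homeodomain genes Lhx2 and Lhx9, the 4 LIM-only genes Lmo1, Lmo2, Lmo3 and Lmo4, and the LIM-domain-binding genes Ldb1 and Ldb2. They were chosen by family, with earlier results of these data known. All 8 were found among the 43629 genes of the count tables and passed the filter on low counts, which kept 17039 genes. The RNA came from dorsal telencephalon of C57BL/6 mouse embryos at E14.5, with 5 control and 5 Dot1l-cKO samples. Controls were littermates without Cre and with 1 floxed allele of Dot1l (f/+), and Dot1l-cKO carried 1 Cre allele (Cre/+) with both Dot1l alleles floxed (f/f), so both groups carried a floxed allele. No control carried Cre, so loss of Dot1l and any effect of the Cre allele itself cannot be told apart in these samples. The labels call the samples of a group biological replicates and do not say whether a sample is 1 embryo or a pool.

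LIM domains are zinc-binding folds through which proteins bind one another. LIM-homeodomain proteins bind DNA through their homeodomain and are joined by their LIM domains to LDB proteins, which dimerise and so bridge complexes. LMO proteins have LIM domains and no homeodomain and compete for the same LDB proteins. Lhx2 is needed in the forebrain for cortical identity against hem and antihem fate, and in cortical progenitors for the balance of neuron and glia production. DOT1L, the enzyme deleted here, methylates lysine 79 of histone H3 on the bodies of transcribed genes. The comparison of the genotypes asks how transcript levels of these genes differ when Dot1l is deleted.

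Lhx2 and Lmo1 fell and Lhx9 rose in Dot1l-cKO, and the transcripts of the bridging cofactors Ldb1 and Ldb2 and of Lmo2, Lmo3 and Lmo4 did not pass the test. The level of Lmo1 fell 2.76-fold and that of Lhx2 2.31-fold, while that of Lhx9 rose 1.70-fold. For these genes the 250 bases before the RefSeq start of transcription (GRCm38.p6) are shown, since they are the members that changed and Lhx2 and Lmo1 changed together. Capitals mark matches on either strand. The letters searched were GGGCGG for the GC box. For the core bound by many LIM-homeodomain proteins they were TAATTA. The CCAAT box is marked too, and reads as ATTGG when it is on the other strand. The TATA box was searched as TATAAA. The windows are chr2:38339031-38339280 on the plus strand for Lhx2, chr7:109175208-109175457 on the minus strand for Lmo1 and chr1:138842445-138842694 on the minus strand for Lhx9.
Lhx2: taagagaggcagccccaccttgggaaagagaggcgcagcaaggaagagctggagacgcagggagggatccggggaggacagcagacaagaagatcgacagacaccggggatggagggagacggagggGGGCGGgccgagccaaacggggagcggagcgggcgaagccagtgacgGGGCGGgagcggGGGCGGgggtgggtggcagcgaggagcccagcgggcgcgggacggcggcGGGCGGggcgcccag
Lmo1: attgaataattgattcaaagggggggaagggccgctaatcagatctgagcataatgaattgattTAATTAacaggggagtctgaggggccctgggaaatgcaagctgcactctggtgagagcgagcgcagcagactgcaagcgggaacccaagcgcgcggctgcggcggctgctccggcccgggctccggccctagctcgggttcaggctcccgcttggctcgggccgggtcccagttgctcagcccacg
Lhx9: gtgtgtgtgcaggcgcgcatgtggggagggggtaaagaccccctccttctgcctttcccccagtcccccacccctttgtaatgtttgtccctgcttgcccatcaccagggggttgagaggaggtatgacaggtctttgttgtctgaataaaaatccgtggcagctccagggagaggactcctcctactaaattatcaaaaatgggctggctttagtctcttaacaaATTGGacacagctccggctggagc
The Lhx2 window holds 4 GC boxes, 25 CpG dinucleotides and 72.8% G and C. The Lmo1 window holds 1 TAATTA, no GC box, 17 CpG and 61.2% G and C. The Lhx9 window holds 1 CCAAT box, no GC box, 4 CpG and 53.6% G and C. It is the only RefSeq window of Lhx9 and lies within the annotated gene, which begins at 138848577 on the minus strand. It thus precedes a start inside the gene, while the windows shown for Lhx2 and Lmo1 precede the annotated gene. Among the 32851 promoter windows of the RefSeq table, all cut to the same 250 bases, the median was 52.4% G and C with 6 CpG. Of these windows 32.7% hold a GC box, 4.84% a TAATTA, 33.8% a CCAAT box and 12.4% a TATA box. The E-box CANNTG, in 66.2% of windows, was searched as well and is not marked. The same holds for the GATA motif AGATAA, in 9.99% of windows, and the windows of Lmo1 and Lhx9 hold 1 E-box each. No marked match overlaps a match of another marked motif, and a match describes the letters only. RefSeq gave 12 windows for 6 of the 8 members, and Lhx2 and Lmo1 have another start each, at which the window holds 0 and 2 GC boxes.

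Of the 17039 genes tested, 7.11% passed edgeR's quasi-likelihood test at an adjusted p-value under 0.05 (Benjamini-Hochberg), 1.44% as lower and 5.67% as higher in Dot1l-cKO. Among the 8 members 2 were lower, 1 was higher and 5 were not called, with a median log2 fold change of -0.10 against -0.0056 over all genes tested. With the replicate number as a block the background of lower genes was 2.91%, and the same 3 members were called. Control and Dot1l-cKO values did not overlap for 4 members (Lhx2, Lhx9, Lmo1 and Ldb1), as for 8.34% of all genes tested. Totals per sample ran from 54202349 to 66556034 counts, and the members held between 473 and 21854 counts in a sample, and over all genes replicates of a group differed by more than counting error, with a chi-square per degree of freedom of at least 32.5. The 4 samples that carry the number 57 in the headers of the normalised tables (replicates 2 and 3 of both groups), a number that the labels and methods do not explain, stood apart, with 0.0471% to 0.492% of counts in mitochondrial rRNA genes against 5.79% to 10.9% in the other 6. Outside them, 3 samples against 3, 4.31% of genes were called. Projection neuron markers of the cortex were present in every sample, summing to between 960.5 and 1464 CPM (counts scaled to a common library total of 1e+06), with 0 of 5 genes called by edgeR, 3 at an unadjusted p under 0.05 and 2 called by DESeq2. Microglial markers stood apart by genotype, summing to between 27.1 and 46.5 CPM in controls and between 55.1 and 82.1 CPM in Dot1l-cKO, with 5 of 5 higher. The gene-level count of Dot1l, which sums deleted and remaining exons, was not lower in Dot1l-cKO, at 37.3 ± 4.04 CPM (controls) and 39.4 ± 11.7 CPM (Dot1l-cKO) (SD, n = 5 per genotype).

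**Figure D1:**
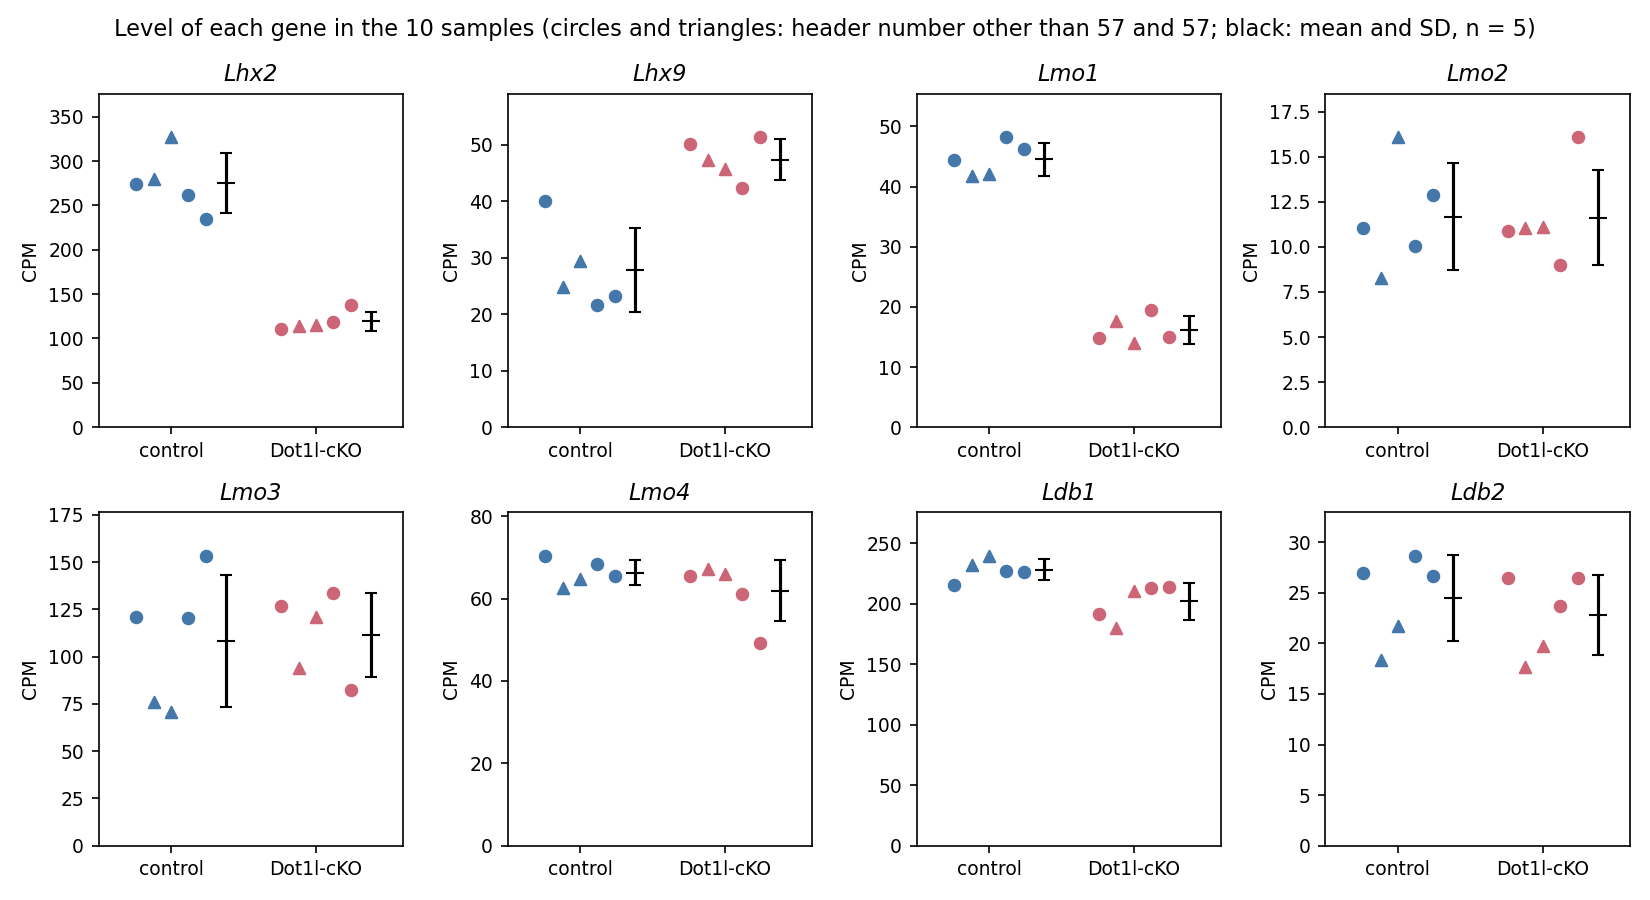
Level of each of the 8 genes in every sample, in CPM (vertical axis from 0), for control and Dot1l-cKO samples; circles are samples with a header number other than 57, triangles those with 57, and the black mark is the mean with its SD (n = 5). The groups of Lhx2, Lmo1, Lhx9 and Ldb1 do not overlap, by a margin of 96 CPM for Lhx2 and of 1.44 CPM for Ldb1.

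Lhx2 (ENSMUSG00000000247) is found on the plus strand of chromosome 2 in GRCm38, from 38339281 to 38369733. In controls 1 to 5 it was measured at 274.6, 279.6, 327.2, 262 and 234.2 CPM, and in Dot1l-cKO 1 to 5 at 110.7, 114, 114.8, 119.1 and 138.2 CPM. Every Dot1l-cKO sample lay below every control, and the lowest control was 96 CPM above the highest Dot1l-cKO sample. The mean of the Dot1l-cKO samples was 43.3% of the control mean. The log2 fold change was -1.21 (95% interval -1.42 to -0.99, adjusted p = 0.000119), and its p-value was the 8th smallest of all genes tested. Mean log2 CPM differed by -1.40 among the samples with header number 57 and -1.07 among the others. The edgeR test of a different effect in these 2 sets of samples gave an unadjusted p of 0.071 and an adjusted p of 0.728. In RNA from whole tissue, fewer cells that express a gene and less RNA per cell cannot be told apart, here and for every gene that follows. Summed markers of cortical progenitors, in which Lhx2 is expressed, ran from 591.2 to 841.8 CPM in controls and from 581 to 682 CPM in Dot1l-cKO, and 1 of 6 (Pax6) was called by edgeR, 4 (Pax6, Emx1, Emx2 and Sox2) had an unadjusted p under 0.05 and 2 (Pax6 and Sox2) were called by DESeq2, each lower in Dot1l-cKO. Their part in the difference was not tested.

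A noncoding transcript that lies within Lhx2 on the opposite strand, Gm27197 (chromosome 2, 38347357 to 38348316, minus strand), also fell. This gene was looked at for its position after its value was known. Its level was 2.44 in controls against 1.34 CPM in Dot1l-cKO, a log2 fold change of -0.86 (adjusted p = 0.0135), and it held 1133 counts over all samples. Counting was by strand, and Lhx2 itself was far higher at 275.5 ± 33.8 CPM in controls (SD, n = 5). The part of Lhx2 reads assigned to the wrong strand was not tested.

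Lhx9, the closest relative of Lhx2, lies on chromosome 1 from 138825186 to 138848577 on the minus strand and is best known in the brain from the thalamus and from early-born neurons. It was measured at 40.0, 24.9, 29.4, 21.6 and 23.2 CPM in controls 1 to 5 and at 50.1, 47.4, 45.8, 42.4 and 51.4 CPM in Dot1l-cKO 1 to 5. All Dot1l-cKO samples were above all controls, with a margin of only 2.35 CPM, which control 1 sets. The mean rose from 27.8 ± 7.43 to 47.4 ± 3.57 CPM (SD, n = 5 per genotype), which is a log2 fold change of 0.77 (95% interval 0.44 to 1.10, adjusted p = 0.0111). Mean log2 CPM differed by 0.78 within header number 57 and 0.81 outside it. With only the 6 samples outside header number 57 the log2 fold change was 0.76 and no longer passed the test (adjusted p = 0.0979), with 3 samples against 3.

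Markers of tissue or cells that express Lhx9 were set beside it. The diencephalic markers Tcf7l2, Gbx2, Foxp2, Rora and Olig3 summed to between 33.1 and 65.8 CPM in controls and between 23.8 and 42.6 CPM in Dot1l-cKO. Of the 4 that were tested with edgeR 0 were called, 2 (Tcf7l2 and Foxp2) had an unadjusted p under 0.05 and 1 (Tcf7l2) was called by DESeq2, each lower in Dot1l-cKO, and Gbx2 was too low to test. Rora had a log2 fold change of 0.028 (adjusted p = 0.955 by edgeR). Control 1 was the control with the most Lhx9. Of all samples it held the most Gbx2 (2.03 CPM), Olig3 (2.61 CPM), Tcf7l2 (11.8 CPM) and Rora (6.915 CPM). Foxp2, the most abundant of the list, was highest in control 4 (45.6 CPM), the control with the least Lhx9. Foxp2 made up most of the sum in every sample, so the sums mainly follow this 1 gene. Without control 1 the log2 fold change of Lhx9 was 0.93. Markers of Cajal-Retzius cells, the earliest neurons of the cortical surface, summed to between 400.7 and 617.2 CPM in controls and between 612.8 and 1180 CPM in Dot1l-cKO. All 6 had positive log2 fold changes, and Lhx5, Calb2 and Ndnf were called by edgeR. At an unadjusted p under 0.05 there were 5, and DESeq2 called 4, with Reln added. Reln made up most of the sum. The part of diencephalic tissue and of these cells in the rise of Lhx9 was not tested.

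Lmo1, a LIM-only gene, lies on chromosome 7 from 109138572 to 109175207 on the minus strand. Its level was 44.4, 41.7, 42.0, 48.2 and 46.3 CPM in controls 1 to 5 and 14.8, 17.6, 13.9, 19.4 and 14.9 CPM in Dot1l-cKO 1 to 5. The groups were far apart for their spread, with means of 44.5 ± 2.79 and 16.1 ± 2.31 CPM (SD, n = 5 per genotype). The log2 fold change was -1.46 (95% interval -1.68 to -1.25, adjusted p = 3.48e-05), and only 3 genes had a smaller p-value. Mean log2 CPM differed by -1.42 within header number 57 and -1.51 outside it, and the test of a different effect in these sets gave an adjusted p of 0.914.

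Lmo1 is also expressed outside the cortex, and markers of the ventral telencephalon and of interneurons (Dlx1, Dlx2, Dlx5, Dlx6, Gad1, Gad2, Nkx2-1, Lhx6, Lhx8 and Gsx2) were set beside it. They summed to between 55.4 and 286.6 CPM in controls and between 5.48 and 84.1 CPM in Dot1l-cKO, and all 9 that were tested had negative log2 fold changes, 7 with an unadjusted p under 0.05 and 1 (Lhx6) called by edgeR and by DESeq2. Their sum averaged 185.2 CPM over controls against 46.6 CPM over Dot1l-cKO samples, so it was lower in the group in which Lmo1 was lower. Control 3 had 55.4 CPM of these markers with 42.0 CPM of Lmo1, while Dot1l-cKO 1 had 84.1 CPM of the markers with 14.8 CPM of Lmo1. The part of such cells in the difference of Lmo1 was not tested.

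**Figure D2:**
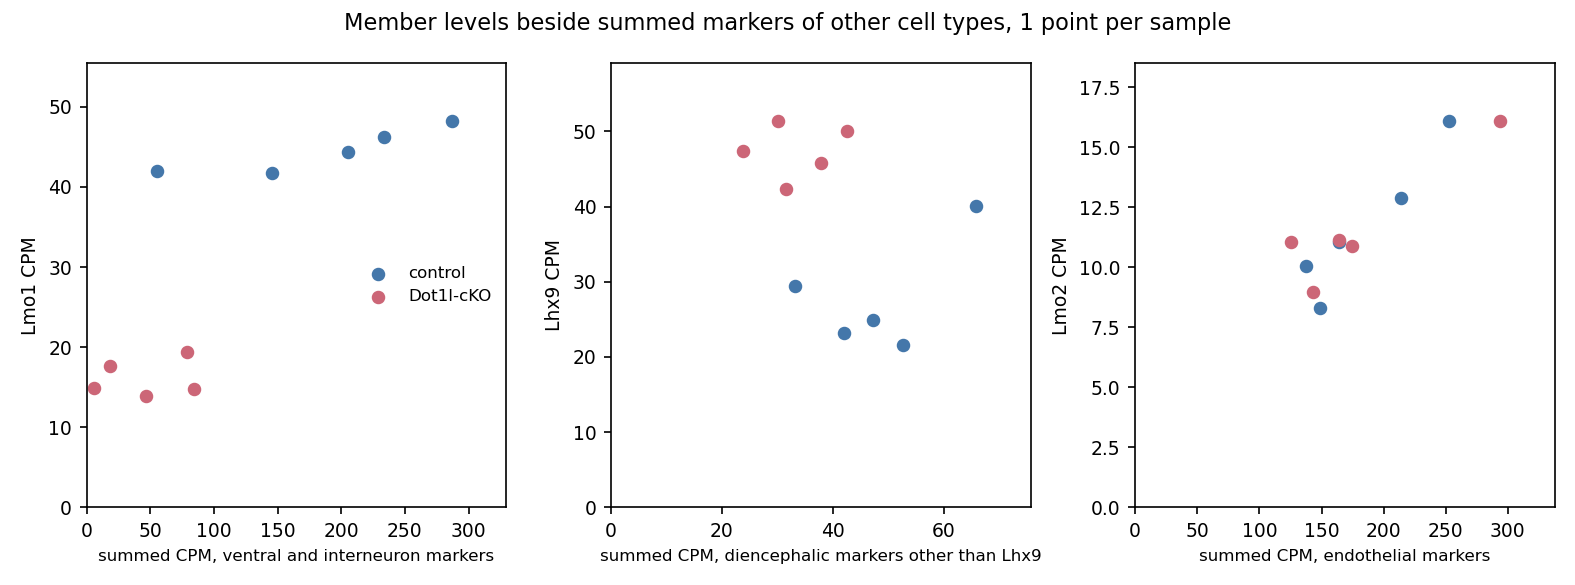
Levels of Lmo1, Lhx9 and Lmo2 (vertical axes, CPM) against the summed CPM of markers of other cell types in the same sample (horizontal axes), 1 point per sample, control in blue and Dot1l-cKO in red. Lmo1 stays between 13.9 and 19.4 CPM in Dot1l-cKO over marker sums from 5.48 to 84.1 CPM, and the highest Lmo2 levels are in the samples with the highest endothelial sums.

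Lmo2, known for its role in blood and blood vessel development, is encoded on the plus strand of chromosome 2, from 103957986 to 103981878. Its level was 11.1, 8.30, 16.1, 10.1 and 12.9 CPM in controls 1 to 5 and 10.9, 11.1, 11.1, 8.97 and 16.1 CPM in Dot1l-cKO 1 to 5. The groups overlapped almost entirely, and the log2 fold change was -0.0078 (95% interval -0.43 to 0.42, adjusted p = 0.989), an interval that allows a change of up to 1.35-fold in either direction. Endothelial markers summed to 252.9 CPM in control 3 and 293.7 CPM in Dot1l-cKO 5, the highest values of their groups. These were also the samples with the most Lmo2. They held the highest sums of their groups for erythroid markers (1956 and 1739 CPM) and microglial markers (46.5 and 82.1 CPM) as well. Of the 8 endothelial markers 0 were called by edgeR or DESeq2, and 0 had an unadjusted p under 0.05.

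Lmo3, on chromosome 6 from 138362918 to 138581968 on the minus strand, is expressed in deep layers and subplate of the cortex. It was measured at 120.9, 75.8, 70.6, 120.5 and 153.5 CPM in controls 1 to 5 and at 126.6, 93.9, 120.8, 133.6 and 82.6 CPM in Dot1l-cKO 1 to 5. Its coefficient of variation was 32.1% in controls, the highest of the members there, and 19.8% in Dot1l-cKO. Both controls with header number 57 lay below the other controls. Controls also divided by this number for Lhx2 (279.6 to 327.2 CPM with 57 against 234.2 to 274.6 CPM) and Ldb1, higher with 57. They did so for Lmo1 (41.7 to 42.0 CPM with 57 against 44.4 to 48.2 CPM), Lmo4 and Ldb2, lower with 57. This sets 2 controls against 3, and the share of all genes that divide so was not worked out. In Dot1l-cKO only Lmo4 and Ldb2 divided by this number. There Lmo4 was higher with 57 (66.0 to 67.3 CPM against 49.3 to 65.6 CPM), and Ldb2 was lower. For Lmo3 the log2 fold change was 0.04 (95% interval -0.43 to 0.52, adjusted p = 0.939). Within header number 57 mean log2 CPM differed by 0.54, and outside it by -0.23. The test of that difference between the 2 sets of samples gave a p-value of 0.0251 by edgeR, which did not hold after adjustment over all genes (0.728). The other subplate markers Nr4a2, Ctgf and Cplx3 summed to between 17.8 and 28.3 CPM in controls and between 28.6 and 47.0 CPM in Dot1l-cKO, with 0 of the 2 tested called by edgeR or DESeq2 and 2 at an unadjusted p under 0.05.

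Lmo4, a LIM-only gene with patterned expression across cortical areas, is on chromosome 3 from 144188530 to 144205220 on the minus strand. Its level was 70.5, 62.6, 64.8, 68.5 and 65.4 CPM in controls 1 to 5 and 65.6, 67.3, 66.0, 61.1 and 49.3 CPM in Dot1l-cKO 1 to 5. The groups overlapped, and Dot1l-cKO 5 was the lowest of the 10 samples. The log2 fold change was -0.10 (95% interval -0.29 to 0.089, adjusted p = 0.570). The interval excludes a fall of the size seen in Lmo1.

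Ldb1, which encodes the main bridging cofactor, is on chromosome 19 from 46031570 to 46045214 on the minus strand. It was measured at 215.8, 232.1, 240, 227.1 and 226.3 CPM in controls 1 to 5 and at 191.4, 180.3, 210.7, 213.4 and 214.3 CPM in Dot1l-cKO 1 to 5. All Dot1l-cKO samples lay below all controls, but by a margin of only 1.44 CPM. The log2 fold change of -0.18 (95% interval -0.32 to -0.027) did not pass the edgeR test over all genes (unadjusted p = 0.0243, adjusted p = 0.164). DESeq2 gave -0.20 with an adjusted p of 0.0435. The start of Ldb1 overlaps Pprc1 on the opposite strand.

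Ldb2, the second LDB gene and a marker of deep-layer neurons, is on chromosome 5 from 44472132 to 44799680 on the minus strand. Its level was 26.9, 18.4, 21.7, 28.7 and 26.7 CPM in controls 1 to 5 and 26.5, 17.7, 19.8, 23.7 and 26.5 CPM in Dot1l-cKO 1 to 5. Its values separated by header number and not by genotype, with 17.7 to 21.7 CPM in the 4 samples with 57 and 23.7 to 28.7 CPM in the other 6. The log2 fold change was -0.10 (95% interval -0.43 to 0.22, adjusted p = 0.755), although Dot1l-cKO was the lower sample in 5 of 5 pairs with the same replicate number. The other deep-layer markers Bcl11b, Fezf2, Crym and Sox5 summed to between 712.7 and 771.3 CPM in controls and between 635.5 and 863.6 CPM in Dot1l-cKO. By edgeR 1 of them (Crym) was called, as higher. Crym and Sox5 had an unadjusted p under 0.05 and were called by DESeq2. Sox5 went the other way, with a log2 fold change of -0.275 by edgeR.

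**Figure D3:**
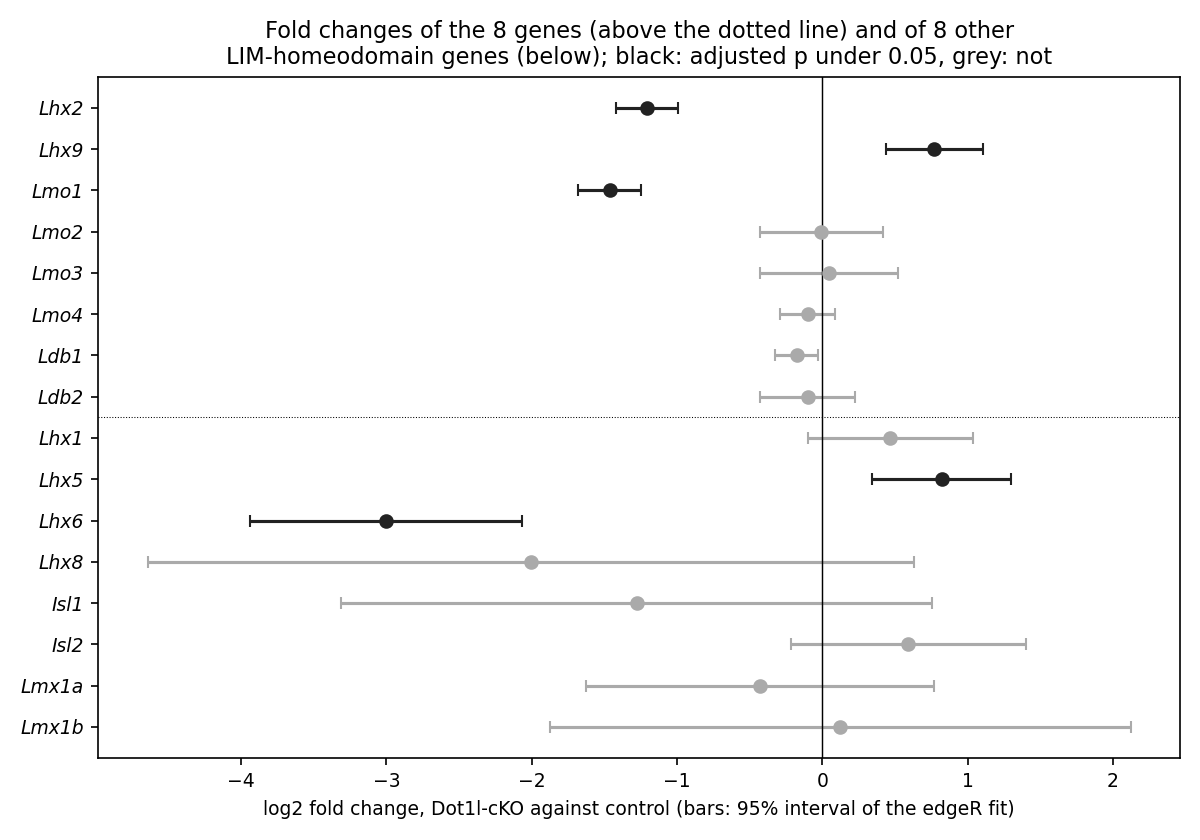
Log2 fold change of Dot1l-cKO against control (horizontal axis) with its 95% interval from the edgeR fit, for the 8 genes described (above the dotted line) and for 8 other LIM-homeodomain genes that were tested (below it); black marks an adjusted p-value under 0.05. Lmo1 at -1.46 and Lhx2 at -1.21 lie to the left of 0 with short intervals, Lhx9 at 0.77 to the right, and Lhx6 at -3.00 is the furthest from 0.

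To compare the genes with one another, levels were divided by the length of the exons of each gene, giving CPM per kilobase. In controls Lhx2 stood highest at 62.7 ± 7.70 CPM per kilobase, above Ldb1 at 49.6 ± 1.92, and the groups of samples did not overlap. Next in level were Lmo1 at 28.7 ± 1.80, Lmo3 at 21.1 ± 6.77 and Lmo4 at 18.8 ± 0.887 CPM per kilobase, of which neighbours overlapped. Ldb2 at 7.34 ± 1.28, Lmo2 at 5.39 ± 1.37 and Lhx9 at 2.93 ± 0.782 CPM per kilobase closed the order, and again neighbours overlapped. In Dot1l-cKO the highest level was that of Ldb1 at 43.9 ± 3.34 CPM per kilobase, with Lhx2 at 27.2 ± 2.49 below it. The level of Lmo3 was then 21.7 ± 4.30, that of Lmo4 17.5 ± 2.10 and that of Lmo1 10.4 ± 1.49 CPM per kilobase. In Dot1l-cKO Lhx2 overlapped Lmo3, and Lhx9 at 4.99 ± 0.376 CPM per kilobase overlapped Lmo2 at 5.37 ± 1.22 (all SD, n = 5). Lmo1 thus had rank 3 in controls and rank 5 in Dot1l-cKO. With the longest transcript as the length, Lmo4 had rank 3 and Lmo1 rank 4 in controls. In Dot1l-cKO Lhx9 moved from rank 8 to rank 6 with that length. These positions thus depend on the length used. With either length Lhx2 was first and Ldb1 second in controls, and Ldb1 was first and Lhx2 second in Dot1l-cKO.

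**Figure D4:**
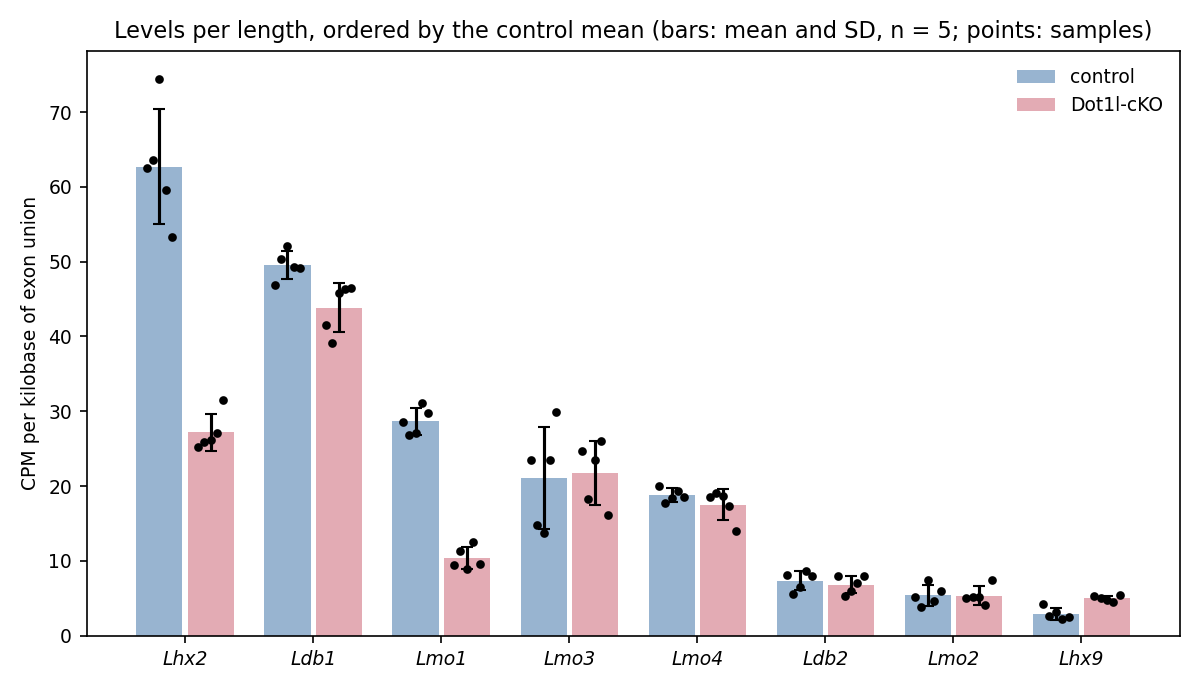
Level per length of each gene in CPM per kilobase of exon (vertical axis from 0), control in blue and Dot1l-cKO in red, with bars for the mean, error bars for the SD (n = 5) and points for samples, ordered by the control mean. Lhx2 is above Ldb1 in controls and below it in Dot1l-cKO, at 27.2 against 43.9 CPM per kilobase.

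Ratios of these per-length levels describe the transcripts within a sample and are given with no test, since the members were known to differ. They use the length of the exons only. For Lhx9 that length was 9494 bases, against 4937 for its longest transcript. The ratio of Lhx2 to summed Ldb1 and Ldb2 was 0.933 to 1.27 in controls and 0.506 to 0.584 in Dot1l-cKO. The ratio of the 4 summed Lmo genes to Lhx2 was 1.20 ± 0.272 in controls and 2.05 ± 0.317 in Dot1l-cKO (SD, n = 5 per genotype), and the highest control (1.58) was above the lowest Dot1l-cKO sample (1.5). The ratio of summed Lmo to summed Ldb moved less, from 1.30 ± 0.158 to 1.09 ± 0.135, and that of Lmo4 to Ldb1 was 0.380 ± 0.0312 and 0.403 ± 0.0716. Lhx9 made up 4.47% ± 1.07 of summed Lhx2 and Lhx9 in controls and 15.6% ± 1.25 in Dot1l-cKO. Lmo1 made up 39.0% ± 2.84 of the summed Lmo genes in controls and 19.0% ± 2.54 in Dot1l-cKO. In these samples the summed level of Lhx2 and Lhx9 was 65.7 ± 7.99 CPM per kilobase in controls and 32.2 ± 2.66 in Dot1l-cKO, so that the rise of Lhx9 was small beside the fall of Lhx2. Transcript ratios say nothing of the amounts of protein.

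**Figure D5:**
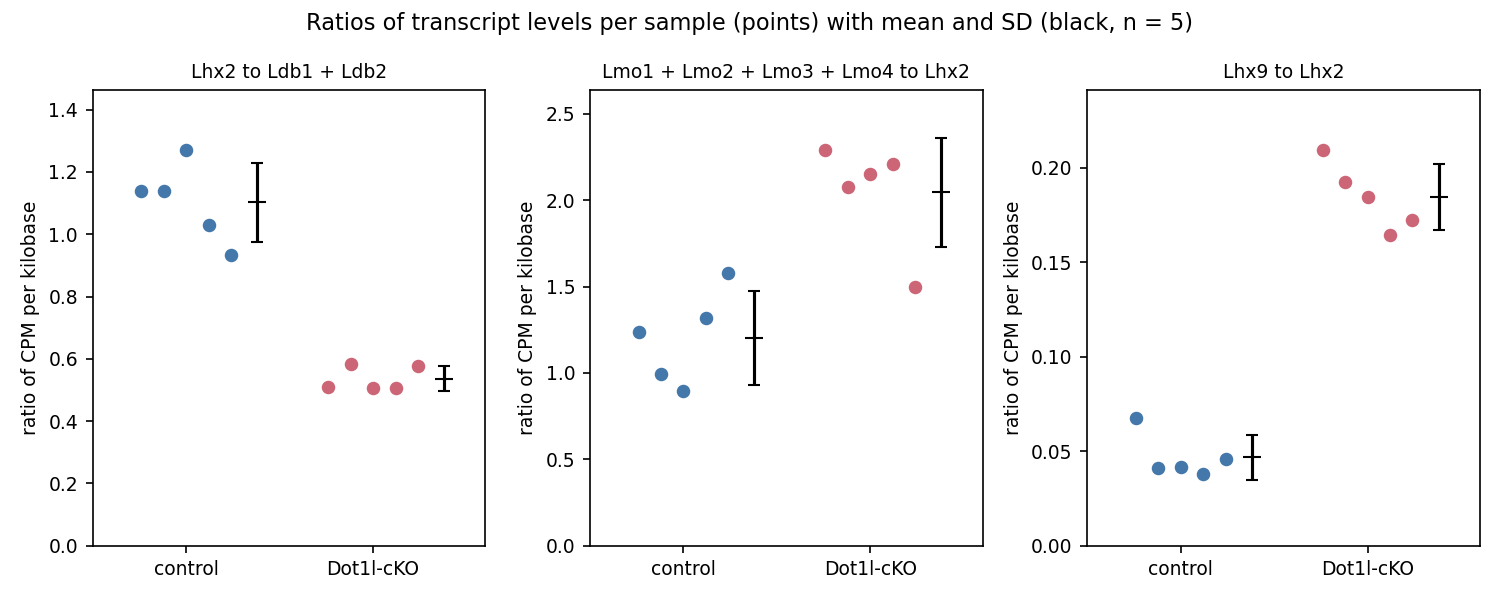
Ratios of CPM per kilobase in each sample (points) with mean and SD (black, n = 5), for Lhx2 to summed Ldb1 and Ldb2, for the 4 summed Lmo genes to Lhx2, and for Lhx9 to Lhx2; vertical axes start at 0. The groups are apart in the first and last ratio, while in the middle one Dot1l-cKO 5 at 1.5 lies among the controls.

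Other genes of the pathway were read from lists. Of 10 other LIM-homeodomain genes 8 were tested, since Lhx3 and Lhx4 were too low, and 1 rose and 1 fell, with a median log2 fold change of -0.15. Lhx6, needed by interneurons of the medial ganglionic eminence, fell from 30.4 ± 12.4 to 3.8 ± 2.2 CPM (SD, n = 5 per genotype), which is a log2 fold change of -3.00 (adjusted p = 0.00187). Lhx5, a gene of Cajal-Retzius cells and of the hem, rose from 4.87 ± 1.82 to 8.61 ± 0.415 CPM, a log2 fold change of 0.82 (adjusted p = 0.0443). The call of Lhx5 was lost in 8 of 10 leave-one-out fits, and it was kept without control 2 and without control 3. Lhx1 and Isl1 did not pass the test, with log2 fold changes of 0.47 (interval -0.10 to 1.03) and -1.28 (interval -3.31 to 0.75).

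The other nuclear partners of LIM complexes are the SSBP proteins that stabilise LDB, the ubiquitin ligase Rlim, Kdm1a and Rcor1 of a corepressor complex, Rbbp8, Deaf1 and the blood-cell partners Tal1, Lyl1, Tcf3, Gata1 and Gata2. Of the 12 tested, 0 were called by edgeR, 1 (Rbbp8) had an unadjusted p under 0.05, and 0 were called by DESeq2. Their median log2 fold change was -0.098. The SSBP genes had log2 fold changes of -0.14 (Ssbp2), 0.15 (Ssbp3) and 0.11 (Ssbp4), with intervals between -0.38 and 0.35. Rbbp8, which encodes a partner of LMO4 in DNA repair, had a log2 fold change of -0.33 (interval -0.59 to -0.073, adjusted p = 0.130). Without control 5 it was called, at -0.42 (adjusted p = 0.0256).

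Cytoplasmic and cytoskeletal genes with LIM domains share the fold but not the nuclear role. Of 33 tested 4 rose (Pdlim3, Pdlim4, Pdlim5 and Csrp2) and the other 29 were not called, with a median log2 fold change of 0.12. At an unadjusted p under 0.05 there were 8, of which Fhl1 and Limd1 were lower, and DESeq2 called 5, with Fhl1 added. Fhl1 had a log2 fold change of -0.32 (adjusted p = 0.0625 by edgeR). It was called as lower with DESeq2, with limma and with the replicate or header number as a block. The call of Csrp2 was kept in 2 of 10 leave-one-out fits (without control 5 or Dot1l-cKO 3) and was lost in 8 of the 11 other alternatives, among them the replicate block (0.35, adjusted p = 0.0540). Pdlim3, which encodes an actin-associated protein of muscle, rose from 1.07 ± 0.565 to 4.91 ± 0.805 CPM (SD, n = 5 per genotype), which is a log2 fold change of 2.19 (adjusted p = 0.00172). Lmo7 shares the Lmo name but belongs to this class by structure, and was looked at after its value was known. Its level was 20.4 in controls against 28.0 CPM in Dot1l-cKO, with a log2 fold change of 0.45 (adjusted p = 0.0325).

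Dorsal telencephalic regional factors act beside Lhx2 in patterning. Of 10 tested 3 fell (Otx1, Dmrt3 and Pax6), beside 1.44% of all genes tested, and the other 7 were not called. The median log2 fold change of the 10 was -0.44. At an unadjusted p under 0.05 there were 6, with Emx1, Emx2 and Nr2f2 added, each lower in Dot1l-cKO. DESeq2 called 4, with Nr2f2 added. Otx1, a factor of the posterior cortex and deep layers, fell from 15.3 ± 2.07 to 6.62 ± 1.45 CPM (SD, n = 5 per genotype), which is a log2 fold change of -1.21 (adjusted p = 0.00139). In 5 of the 10 fits without 1 sample (without control 1 or 4, or Dot1l-cKO 1, 2 or 3) Otx1 alone was called from this list. The call of Dmrt3 was lost in 8 of the 10, and kept without control 5 or Dot1l-cKO 5.

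Another list held 5 genes that were set with Lhx2 for cortical neuron and glial fate (Fezf2, Sox11, Pax6, Bcl11b and Nfia), some of which are known to respond to Lhx2. Of these, 2 fell (Sox11 and Pax6), and the median log2 fold change was -0.24. The call of Pax6 was lost in 7 of 10 leave-one-out fits, being kept without control 3, control 5 or Dot1l-cKO 4, and in 3 of the 11 other alternatives. Sox11, a SoxC factor of young neurons, fell from 2630 ± 235.7 to 1787 ± 206.4 CPM (SD, n = 5 per genotype), which is a log2 fold change of -0.56 (adjusted p = 0.00532). Fezf2, the selector of subcerebral projection neurons, had a log2 fold change of 0.26 (interval -0.027 to 0.55, adjusted p = 0.296).

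The genes whose profiles over the 10 samples were most like those of the called members were found by the root mean square difference of centred log2 CPM, among 12658 genes. Nearest to Lhx2 were Fhod3 (0.173), Gm11266 (0.178), Igf2bp1 (0.179), Skida1 (0.179) and AW047730 (0.206). These genes fell with log2 fold changes of -0.99, -1.30, -1.35, -1.06 and -0.88. Nearest to Lmo1 were Gm11266 (0.220), Lhx2 (0.258) and Sytl5 (0.295), so Lhx2 was the second most like Lmo1 among all genes compared. Nearest to Lhx9 were Dcaf12l1 (0.139), Nhlh2 (0.145) and Gabra4 (0.152), which rose with log2 fold changes of 0.75, 0.72 and 0.74. The measure takes in the difference between the groups, so genes called with a like fold change are favoured by it.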

How the data were processed

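Per the labels and the methods of the study, the authors made stranded libraries from total RNA depleted of ribosomal RNA, sequenced paired ends, trimmed reads with Trim Galore 0.2.8, mapped them to mm10 with TopHat2 2.0.9 and assigned them to Ensembl genes with HTSeq 0.6.0 in reverse-stranded mode. The deposited counts are whole reads per gene, not normalised. The deposited normalised values, used only in 1 alternative, are a signal that the authors made by dividing each count by the size factor of its sample from DESeq2 1.6.1.

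Symbols, exon lengths and coordinates came from a GENCODE annotation of GRCm38, which matched 42462 of 43629 identifiers; those without a symbol held 0.268% of counts. Genes were tested with edgeR 4.0.16 in R 4.3.3 (filterByExpr, TMM, quasi-likelihood, no covariate, Benjamini-Hochberg over all genes tested), and called at an adjusted p under 0.05. CPM used the TMM library size. Intervals are the estimate with t times its size over the square root of F. The test was tried on simulated counts. Depth was 54202349 to 66556034 counts per sample, which were read without molecular identifiers, so counting error is a lower limit.

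Replicate numbers are those of the labels. Each sample was taken as its deviation from its group mean. Across genes these deviations correlated at 0.131 to 0.597 between samples of the same number, each above 0.1. The average was 0.29, against -0.0717 for other numbers. Deviations cancel out within a group, so these averages depend on each other. Correlations between other numbers reached 0.446, and only 2 controls correlated best with their own number. Whether the numbers pair the samples was thus not settled, and they were used as pairs in a blocked alternative. Alternatives also covered DESeq2 1.42.0, limma 3.58.1 on log2(normalised count + 1), other size factors and filters, and header number as a block. Another took the log2 CPM of Xist as a covariate, in place of embryo sex. Further ones removed mitochondrial genes, set samples with header number 57 apart from the others, or left out each sample. The setting without control 1 was read beside Lhx9 after the data were seen.

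The members, gene lists and marker lists were chosen with earlier results of these data known. Named genes are the 8 members, called genes of the lists of LIM-homeodomain genes and nuclear partners, the largest called change in each direction of the other lists, the genes with profiles most like a called member (5 for Lhx2, 3 for the others, mean log2 CPM at least 1), and Dot1l. Another gene of this rule is not reported here. Other genes are named where counts are small or where they overlap a member.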

Additional observations from a re-analysis of the deposited data

Results flagged for a closer look

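In 48 groups of 5 samples, made from 24 named genes and both genotypes, the highest or the lowest sample was compared with the nearest of the others as a share of the range. Dixon's 95% critical value was passed in 4 groups, and chance alone gives about 1 in 20. None of them is a member, and each is a low sample of the Dot1l-cKO group. Lhx5 in Dot1l-cKO 4 was at 7.89 CPM against a group median of 8.70 CPM, with a share of 0.775. Fhod3, the gene most like Lhx2 in profile, was at 33.1 CPM in Dot1l-cKO 1 against a median of 40.2 CPM (share 0.881). AW047730, also like Lhx2, was at 12.9 CPM in Dot1l-cKO 1 against 15.7 CPM (share 0.746). Dot1l was at 20.1 CPM in Dot1l-cKO 2 against 42.3 CPM (share 0.717). A different effect of genotype between samples with header number 57 and the others was called for 0 genes by edgeR, with 1071 at an unadjusted p under 0.05, and was not tested with another tool.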

How the results depend on the processing

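Lhx2, Lmo1 and Lhx9 kept their direction and passed the test in all fits that left out 1 sample, at -1.27 to -1.14, -1.54 to -1.42 and 0.69 to 0.93 on the log2 scale. Among the alternatives run they missed the threshold only in subsets of samples split by header number. Within header number 57 alone, 2 samples against 2, they were at -1.39 (adjusted p = 0.0727), -1.39 (0.0821) and 0.80 (0.122), and Lhx9 outside it, 3 against 3, was at 0.76 (0.0979). Without 1 sample the ranges of the others were -0.16 to 0.13 for Lmo2, -0.079 to 0.20 for Lmo3, -0.13 to -0.038 for Lmo4, -0.21 to -0.14 for Ldb1, -0.19 to -0.024 for Ldb2 and -0.046 to 0.25 for Dot1l. Lmo2 changed sign with the replicate block (0.0017), the Xist covariate (0.034) and without header number 57 (0.078). Lmo3 did so with the Xist covariate (-0.017) and without header number 57 (-0.21), and Lmo4 within header number 57 (0.085). Dot1l did so with limma (-0.0058) and within header number 57 (-0.37). None of these was called. Ldb1 passed only with DESeq2 (-0.20).

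Counts over all genes moved more. DESeq2 called 2011 genes, 663 of them lower, and without header number 57 there were 745, with 590 higher and 155 lower. Within header number 57 alone 1 gene was called (Sphkap, higher) and 0 were lower. The number of lower genes was 495 with the replicate block and 597 with the header number as a block, and the replicate block changed no call of a member and took that of Csrp2. Without 1 sample 750 to 1357 genes were called, 624 to 1076 higher and 126 to 343 lower. The lowest was without control 1, there were 779 without control 4, and the number of lower genes also fell by more than 1.5 times without control 2 (134) or 4 (136) and Dot1l-cKO 1 (149), 3 (157) or 4 (144).

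For the lists, the LIM-homeodomain median was 0.14 with DESeq2, 0.18 without and -0.70 within header number 57, and -0.57 (without Dot1l-cKO 5) to 0.23 (without control 3) without 1 sample. Its called genes numbered 1 with no filter and with the Xist covariate, 0 within header number 57, and 1 to 2 without 1 sample. The nuclear partners had a median of 0.016 without header number 57 and 0 to 1 called without 1 sample. The cytoskeletal genes had 0 called and a median of 0.017 within header number 57, and 3 to 6 called without 1 sample. The dorsal factors had 1 called with the Xist covariate and without header number 57, 0 within it, and 1 to 4 without 1 sample. The genes set with Lhx2 had the same numbers for these 3 settings, 1 to 2 called without 1 sample, and medians of -0.32 with limma, -0.030 without and -0.43 within header number 57, and -0.36 to -0.094 without 1 sample. The cause of these changes was not tested, beside the fewer samples in the subsets. The longest transcript as length raised all levels per kilobase, which follows from the lengths, since it cannot exceed that of all exons of the gene.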

Other observations

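Markers of the cortical hem, which does not express Lhx2, and of the choroid plexus were uneven within both groups. They summed to between 38.6 and 673.6 CPM in controls and between 44.7 and 231 CPM in Dot1l-cKO, with 0 of 8 called by edgeR or DESeq2 and 0 at an unadjusted p under 0.05. The choroid plexus gene Ttr made up most of the high sums, at 574.5 CPM in control 3, 497.5 CPM in control 1 and 132 CPM in Dot1l-cKO 5. Control 3, the sample with the most Ttr, was also the one with the most Lhx2 (327.2 CPM). Erythroid markers, set beside Lmo2, summed to between 441.6 and 1956 CPM in controls and between 730.6 and 1739 CPM in Dot1l-cKO, with 0 of 7 called by edgeR or DESeq2 and 0 at an unadjusted p under 0.05.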
